A study of Mus musculus with 4 samples.

Results

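The genes of the fibroblast growth factor (FGF) pathway were examined in sorted cells of the *Prdm13* lineage. The set holds every gene of the expression table whose symbol is that of an FGF ligand, an FGF receptor, the decoy receptor *Fgfrl1*, a carrier protein (*Fgfbp1*, *Fgfbp3*), an adaptor (*Frs2*, *Frs3*), a feedback inhibitor (Sprouty and Spred genes, *Dusp4*, *Dusp6*, *Il17rd*) or an ETS factor of the PEA3 group (*Etv1*, *Etv4*, *Etv5*). It comprised 44 of the 24421 genes in the table. The data are RNA-seq libraries of cells that carried GFP and were collected with a cell sorter. They came from mouse neural tubes at E11.5, of mixed ICR and C57Bl/6 background, heterozygous (*Prdm13* GFP/+, here the control) or homozygous (*Prdm13* GFP/GFP, the mutant) for the GFP allele. In that allele GFP is inserted in the first exon, disrupts *Prdm13* and labels the cells in which the gene is active, so every cell sorted carried at least 1 disrupted copy and no library came from wild-type cells. RNA from several embryos was combined into 1 pool per genotype and 2 libraries were made from each pool. The 2 libraries of a genotype are therefore technical replicates, and standard errors and p-values below measure the spread between libraries and not the spread between embryos.

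In FGF signalling a secreted ligand, held by heparan sulphate, brings receptor tyrosine kinases together at the cell surface. The receptors act through FRS adaptors, Ras and the kinase ERK, which switches on the PEA3 ETS factors together with the pathway's own inhibitors: Sprouty and Spred proteins act near the receptor and Ras, Sef (*Il17rd*) acts at the receptor and on ERK, and the dual-specificity phosphatases DUSP4 and DUSP6 remove phosphate from ERK. In the embryonic spinal cord FGF keeps the caudal tissue undifferentiated, and later FGF receptors mark neural progenitors and cells that will become glia.

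Levels are RPKM, reads divided by a gene's exon length and by the size of the library, which allow genes to be compared with each other. Recovered from the RPKM values, the libraries held 12290837 and 19552526 reads on genes in the control libraries and 17520243 and 14830406 in the mutant libraries. A gene was tested if its mean reached 1 RPKM in either genotype, and 12046 genes did. Of the 44 FGF genes, 24 were tested, 16 had reads but stayed under that level, and 4 (*Fgf6*, *Fgf8*, *Fgf21* and *Spry3*) were listed at 0 in every library. A count of 0 allows up to 3 reads, or 0.164 to 0.259 CPM (counts scaled to library size) depending on the library, and this limit covers counting error only. "Called" below means an adjusted p under 0.05 in limma's moderated test on log2(RPKM + 0.1), with Benjamini-Hochberg adjustment over all genes tested, and a fold of at least 1.5. Fold changes are of *Prdm13* GFP/GFP over *Prdm13* GFP/+ on that log2 scale, which understates the change of low genes. In these bulk samples, fewer cells of a type and less RNA per cell cannot be told apart.

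*Prdm13* itself had 114 and 127 RPKM in the control libraries and 310 and 324 RPKM in the mutant libraries, so the disrupted gene's own transcript was higher in the mutant (log2 fold change 1.40). The value takes reads on any exon of the gene and so does not check whether PRDM13 is made. Of the FGF genes, *Fgfbp3*, *Spry2*, *Fgf15* and *Fgf18* rose in the mutant cells and *Etv1* and *Spry1* fell. That is 4 of 24 tested genes called higher, where 3.65% of all genes tested were, and 2 of 24 called lower, where 2.67% of all genes were. With no filter on RPKM, limma called none of the FGF genes, and 14 of 44 had an unadjusted p under 0.05. Of all 24421 genes in that fit, 2197 were higher and 2203 lower with such a p in limma. By adjusted p alone, with no requirement on fold, 9 FGF genes were higher (9.76% of all genes were) and 4 were lower (9.95% of all genes). The median log2 fold change of the 24 genes was 0.15, against 0.01 for all genes tested. The libraries of the genotypes did not overlap for 20 of the 24, 11 higher and 9 lower in the mutant. Such separation was frequent in the table as a whole, at 31.7% of genes higher and 30.3% lower.

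**Figure D1:**
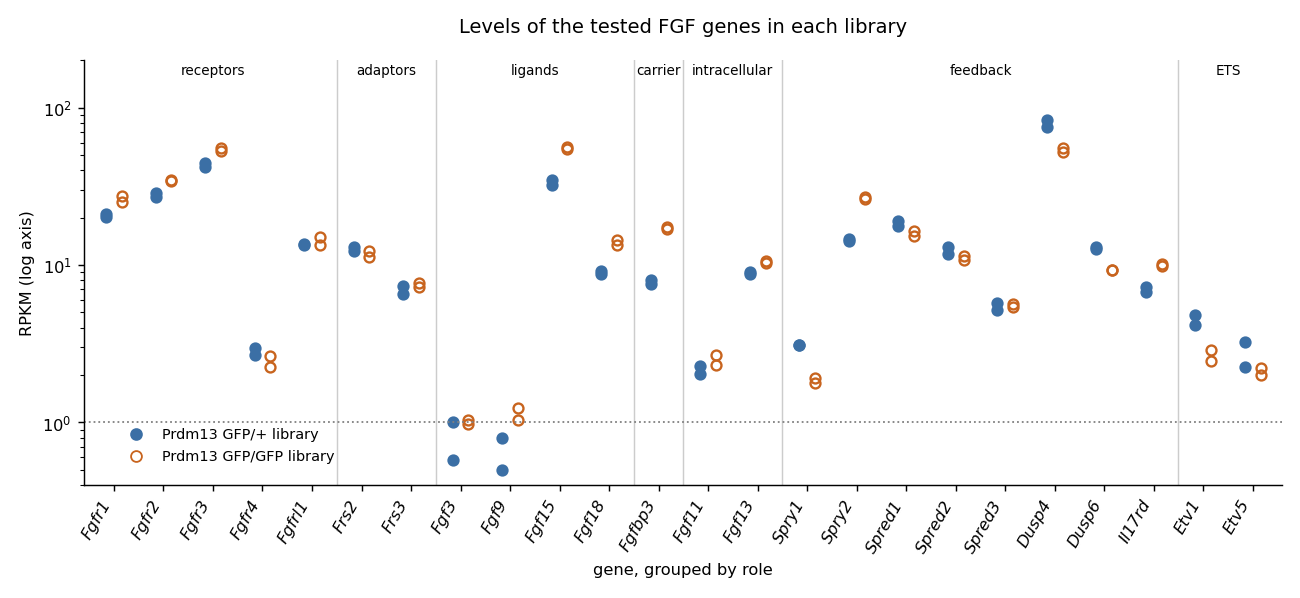
RPKM of the 24 tested FGF genes in each library on a log axis, with filled points for the 2 *Prdm13* GFP/+ libraries, open points for the 2 *Prdm13* GFP/GFP libraries and a dotted line at 1 RPKM. *Dusp4*, at 52.3 to 83.0 RPKM, *Fgfr3* and *Fgf15* were the most abundant, and *Fgf3* and *Fgf9* lay near the limit for testing.

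The FGF genes that moved did not move as a block: the called genes are in 4 different roles, and the Sprouty pair was called in opposite directions. The stretch of 250 bases before the RefSeq transcription start is shown for that pair and for 2 other called genes, *Fgfbp3* and *Fgf18*, to set genes that rose beside a relative that fell. E-boxes are marked because PRDM13 is known to work with bHLH factors, which bind them. The authors found PRDM13 bound mostly far from transcription starts, so this window does not show whether it acts on these genes. The bases are printed 5′ to 3′ on the gene's strand, up to the base before the start, from RefSeq on GRCm38.p6, and capitals mark E-boxes. An E-box was searched as CANNTG on both strands, which for these letters gives the same positions. The *Spry2* stretch is chr14:105896820-105897069 on the minus strand, that of *Spry1* chr3:37639697-37639946 on the plus strand, that of *Fgfbp3* chr19:36919600-36919849 on the minus strand and that of *Fgf18* chr11:33147401-33147650 on the minus strand.
Spry2: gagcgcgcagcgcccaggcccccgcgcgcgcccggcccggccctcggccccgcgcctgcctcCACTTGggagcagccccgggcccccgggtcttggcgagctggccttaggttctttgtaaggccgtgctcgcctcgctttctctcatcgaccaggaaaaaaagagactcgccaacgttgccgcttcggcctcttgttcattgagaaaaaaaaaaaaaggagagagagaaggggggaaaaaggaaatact
Spry1: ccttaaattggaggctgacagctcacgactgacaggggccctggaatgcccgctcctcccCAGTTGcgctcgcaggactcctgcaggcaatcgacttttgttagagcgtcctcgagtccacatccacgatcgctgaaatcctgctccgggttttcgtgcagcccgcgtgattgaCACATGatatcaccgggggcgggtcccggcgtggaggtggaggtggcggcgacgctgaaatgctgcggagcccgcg
Fgfbp3: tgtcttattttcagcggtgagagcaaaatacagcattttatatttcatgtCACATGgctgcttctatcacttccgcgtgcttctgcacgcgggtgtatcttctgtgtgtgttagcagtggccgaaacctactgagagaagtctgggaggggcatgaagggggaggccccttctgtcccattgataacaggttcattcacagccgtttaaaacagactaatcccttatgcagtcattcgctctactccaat
Fgf18: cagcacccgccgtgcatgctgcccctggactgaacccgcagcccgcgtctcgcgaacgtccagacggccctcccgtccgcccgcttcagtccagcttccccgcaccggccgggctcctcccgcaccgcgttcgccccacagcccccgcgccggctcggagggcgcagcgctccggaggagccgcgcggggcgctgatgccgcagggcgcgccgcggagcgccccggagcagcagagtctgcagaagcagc

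*Spry2* held 1 E-box, *Spry1* 2, *Fgfbp3* 1 and *Fgf18* none in this window. An E-box was present in 66.2% of all 32851 RefSeq promoters of this length, so most windows hold one. None of the 4 stretches held CAGCTG, the form of CANNTG with a GC centre, which 13.0% of all promoters held. Nor did any hold CCGGAA, searched on both strands and held by 12.0%. CCGGAA is an extended form of the site of ETS factors, and their shorter core GGAA was not searched. G and C made up 77.2% of the *Fgf18* stretch, 62.4% of each Sprouty stretch and 47.2% of the *Fgfbp3* stretch, against a median of 52.4% over all promoters. Of the 44 FGF genes, 33 had an entry in the table, with 42 promoters in all. An E-box was in 25 of these promoters (59.5%), CAGCTG in 6 (14.3%) and CCGGAA in 5 (11.9%), against 66.2, 13.0 and 12.0% of all promoters. *Etv1*, which fell, had 2 entries, not shown, of which the first held no E-box and the second held 3. *Fgf15* had no entry.

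Among the secreted ligands, *Fgf15* and *Fgf18* accounted for nearly all of the expression. *Fgf15*, the mouse counterpart of human FGF19, is made by progenitors of the developing brain and spinal cord. It lies on chromosome 7 (144896532 to 144900953 on GRCm38). Its level was 34.7 and 32.2 RPKM in the control libraries and 56.3 and 54.7 RPKM in the mutant libraries. Both mutant libraries lay above both control libraries, a log2 fold change of 0.73 (SE 0.06, n = 2 libraries per genotype, adjusted p = 0.00042, limma). Exons of 2 other annotated genes on the opposite strand overlap those of *Fgf15*, and the sources used here do not say whether reads were counted by strand.

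*Fgf18*, a ligand of the FGF8 subfamily, had 9.16 and 8.75 RPKM in the control libraries and 13.5 and 14.4 RPKM in the mutant ones. The genotypes did not overlap, and the log2 fold change was 0.63 (SE 0.07, adjusted p = 0.00156, limma). The fold stood close to the limit of 1.5, and the log2 fold change was 0.58, just short of it, both without the second mutant library and with a pseudocount of 1. The other members of its subfamily, *Fgf8* and *Fgf17*, were at 0 and at no more than 8 reads per library.

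*Fgf9* and *Fgf3*, the remaining ligands that were tested, were near 1 RPKM. *Fgf9* had 0.793 and 0.501 RPKM in the control libraries and 1.23 and 1.04 RPKM in the mutant libraries, a log2 fold change of 0.75 that did not pass the test (SE 0.30, adjusted p = 0.134, limma). It rested on 38 to 83 reads per library, and limma voom on the recovered reads, which weights genes by their read number, called it higher with a log2 fold change of 0.91. *Fgf3* ranged from 0.579 to 1.04 RPKM and its genotypes overlapped (log2 fold change 0.36, SE 0.31, adjusted p = 0.462, limma). *Fgf3*, *Fgf4* and *Fgf15* are neighbours within chr7:144838612-144900953. Of these 3 neighbours *Fgf15* was abundant and *Fgf4* had 1 read in all 4 libraries together.

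Of the 18 secreted ligands, 11 had reads but stayed under the limit and 3 were listed at 0. The ligands under the limit included *Fgf2*, with 0 to 18 reads per library, *Fgf10*, with 5 to 11 reads, and *Fgf7*, with 4 to 8 reads. Together the secreted ligands summed to 46.0 and 43.5 RPKM in the control libraries and to 72.8 and 72.3 RPKM in the mutant libraries. The summed level was higher in both mutant libraries, while the ratio of *Fgf15* to *Fgf18* was 3.79 and 3.68 in the control libraries and 4.18 and 3.80 in the mutant ones, so these 2 ligands kept similar proportions.

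*Fgfbp3*, which encodes a secreted carrier that releases FGFs from heparan sulphate, had the greatest rise among the 24 tested genes. It lies on chromosome 19 (36917550 to 36919599). Its level was 7.58 and 8.05 RPKM in the control libraries and 17.0 and 17.5 RPKM in the mutant libraries. The mutant mean was 2.21 times the control mean, with no overlap (log2 fold change 1.13, SE 0.06, adjusted p = 0.000102, limma). Its relative *Fgfbp1* had 1 read in 1 mutant library and none in the others.

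The 4 intracellular FGFs, which stay inside the cell and bind voltage-gated sodium channels, are neuronal proteins rather than receptor ligands. *Fgf13* was the most abundant, at 8.75 and 9.02 RPKM in the control libraries and 10.6 and 10.3 RPKM in the mutant ones. It was higher in the mutant by adjusted p alone (log2 fold change 0.23, SE 0.06, adjusted p = 0.0440, limma), and leaving out any 1 library raised the adjusted p to between 0.139 and 0.200. *Fgf11*, at 2.05 to 2.70 RPKM, did not pass the test (log2 fold change 0.20, adjusted p = 0.361). *Fgf12* and *Fgf14* stayed under the limit and were not tested. *Fgf12* had 0.590 and 0.606 RPKM in the control libraries and 0.285 and 0.223 RPKM in the mutant ones, from 56, 91, 38 and 25 reads, so its genotypes were apart in the opposite direction to those of *Fgf13*.

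**Figure D2:**
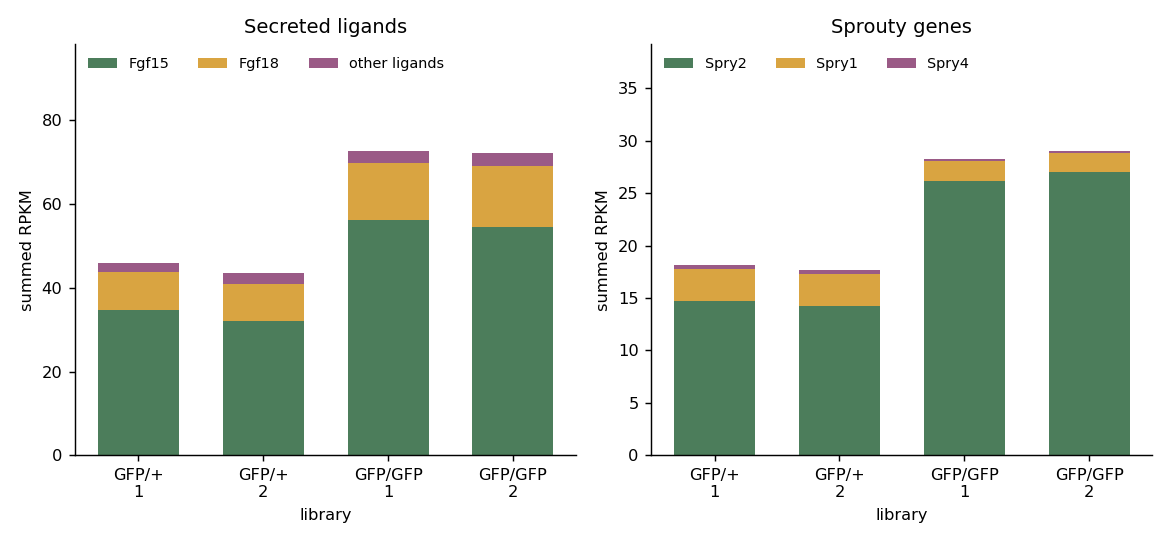
Summed RPKM of the secreted ligands (left) and of the Sprouty genes (right) in each of the 4 libraries, stacked by gene, with both axes starting at 0. The ligand sum is higher in the mutant libraries with *Fgf15* and *Fgf18* in similar proportion, and *Spry1* is a smaller part of the Sprouty sum in the mutant libraries.

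Receptors for these ligands were expressed in both genotypes, and 3 of the 4 kinase receptors were higher in the mutant cells by less than 1.5-fold. *Fgfr3*, which marks progenitors of the spinal cord, was the most abundant, with 41.7 and 44.6 RPKM in the control libraries and 52.9 and 55.6 RPKM in the mutant libraries. *Fgfr2* had 27.2 and 28.7 RPKM in the control libraries and 34.5 and 34.3 RPKM in the mutant libraries. *Fgfr1* had 21.0 and 20.2 RPKM in the control libraries and 25.2 and 27.4 RPKM in the mutant libraries. For these 3 receptors the genotypes did not overlap, and each was higher by adjusted p alone and under the 1.5-fold limit. Over all genes tested, 31.7% were apart and higher and 9.76% were higher by adjusted p alone. The log2 fold change was 0.33 for *Fgfr3* (SE 0.06, adjusted p = 0.00984, limma), 0.30 for *Fgfr2* (SE 0.05, adjusted p = 0.0110) and 0.35 for *Fgfr1* (SE 0.06, adjusted p = 0.0113).

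Whether *Fgfr1*, *Fgfr2* and *Fgfr3* passed depended on the libraries used. Without the second mutant library none of them did, with an adjusted p in limma of 0.0957, 0.0876 and 0.0966. Without the first it was 0.0402, 0.0752 and 0.0507. Without the first control library it was 0.0480, 0.0664 and 0.0582, and without the second 0.0796, 0.0419 and 0.0356. The direction was kept in each of these fits. Each of the 3 genes also shares exonic sequence with another annotated gene, on the same strand for *Fgfr2* (*Ctbp2*) and on the opposite strand for *Fgfr1* and *Fgfr3*.

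*Fgfr4*, the scarcest receptor, went from 2.66 and 2.97 RPKM to 2.27 and 2.63 RPKM, a log2 fold change of -0.20 that did not pass the test (SE 0.13, adjusted p = 0.338, limma). *Fgfrl1*, which binds FGFs but has no kinase domain, had 13.4 and 13.6 RPKM in the control libraries and 13.3 and 15.1 RPKM in the mutant ones, with overlapping genotypes (log2 fold change 0.07, adjusted p = 0.530). Summed over the 4 kinase receptors the level was 92.6 and 96.4 RPKM in the control libraries and 115 and 120 RPKM in the mutant libraries. *Fgfr3* made up 45.0, 46.3, 46.1 and 46.4% of that sum, and the order of the 4 receptors was the same in each library. *Fgfr4* made up 2.88 and 3.08% of the sum in the control libraries and 1.97 and 2.19% in the mutant ones, and this difference in share was not tested.

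The adaptors *Frs2* and *Frs3*, which dock signalling proteins on the activated receptor, did not pass the test. *Frs2* had 12.9 and 12.4 RPKM in the control libraries and 12.3 and 11.3 RPKM in the mutant ones (log2 fold change -0.10, SE 0.07, adjusted p = 0.355, limma). *Frs3* had 6.52 and 7.41 RPKM against 7.26 and 7.64 RPKM (log2 fold change 0.10, SE 0.09, adjusted p = 0.461). Exons of *Frs3*, and those of *Spred3* below, overlap other annotated genes.

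The feedback inhibitors moved in both directions. *Spry2*, which restrains receptor signalling upstream of ERK, lies on chromosome 14 (105891947 to 105896819). It had 14.7 and 14.3 RPKM in the control libraries and 26.2 and 27.0 RPKM in the mutant libraries. The mutant mean was 1.84 times the control mean with no overlap (log2 fold change 0.87, SE 0.05, adjusted p = 0.000175, limma).

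*Spry1*, a close relative with the same role, lies on chromosome 3 (37639947 to 37644599). It had 3.08 and 3.09 RPKM in the control libraries and 1.92 and 1.79 RPKM in the mutant ones. The direction was opposite to that of *Spry2*, with a log2 fold change of -0.70 (SE 0.12, adjusted p = 0.00991, limma). This call was the less firm of the pair, since it rested on 61 to 141 reads per library and its adjusted p passed 0.05 without the first control library (0.0582), the second (0.0604) or the second mutant library (0.0744). With a pseudocount of 1 the log2 fold change was -0.52, short of the fold limit. An annotated gene on the opposite strand overlaps exons of *Spry1*. The ratio of *Spry2* to *Spry1* was 4.76 and 4.62 in the control libraries and 13.6 and 15.1 in the mutant ones, and *Spry1* made up 17.0 and 17.5% of the Sprouty sum in the control libraries and 6.81 and 6.15% in the mutant ones.

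*Spry4*, on chromosome 18, was at 13 to 28 reads per library (0.174 to 0.358 RPKM) and was not tested. The Spred genes, Sprouty relatives that act on Ras signalling, did not pass the test. *Spred1* had 18.9 and 17.7 RPKM in the control libraries and 16.4 and 15.4 RPKM in the mutant ones, without overlap (log2 fold change -0.20, SE 0.06, adjusted p = 0.0718, limma). It was lower by adjusted p alone with limma voom on the recovered reads (adjusted p = 0.00998). *Spred2* had 11.7 and 13.0 RPKM against 10.8 and 11.4 RPKM (log2 fold change -0.15, SE 0.07, adjusted p = 0.198). *Spred3* had 5.18 and 5.77 RPKM against 5.63 and 5.39 RPKM, and its genotypes overlapped (log2 fold change 0.01, SE 0.09, adjusted p = 0.949).

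*Dusp4*, a nuclear phosphatase of ERK and other MAP kinases, had the highest level of all 44 genes in the control libraries. It had 75.4 and 83.0 RPKM in the control libraries and 52.3 and 55.3 RPKM in the mutant libraries. The mutant libraries were lower and apart from the controls (log2 fold change -0.56, SE 0.06, adjusted p = 0.00198, limma), and the fold fell just short of 1.5. It passed that limit, and was called, with quantile normalization of all 4 libraries (log2 fold change -0.60), without the first control library (-0.62) and without the second mutant library (-0.60). *Dusp6*, the ERK phosphatase often used as a readout of FGF signalling, had 12.9 and 12.6 RPKM against 9.35 and 9.25 RPKM. It was lower by adjusted p alone (log2 fold change -0.45, SE 0.06, adjusted p = 0.00382, limma), and its adjusted p was 0.0567 without the second mutant library.

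*Il17rd* (Sef) moved the other way. It had 6.70 and 7.28 RPKM in the control libraries and 10.2 and 9.91 RPKM in the mutant ones, higher by adjusted p alone (log2 fold change 0.52, SE 0.07, adjusted p = 0.00459, limma). Its adjusted p was 0.0507 without the first and 0.0607 without the second mutant library. Of the 10 feedback inhibitors, 8 were tested: *Spry2* and *Il17rd* were higher by adjusted p, *Spry1*, *Dusp4* and *Dusp6* were lower, and the 3 Spred genes passed in neither direction, where 9.76% of all genes were higher and 9.95% lower. Summed over all 10 the level was 149 and 157 RPKM in the control libraries and 133 and 136 RPKM in the mutant ones, a sum in which *Dusp4* is the most abundant gene. That sum does not describe the inhibitors as a set. *Dusp4* and *Dusp6* together went from 88.4 and 95.5 RPKM to 61.7 and 64.5 RPKM. The Spred genes went from 35.8 and 36.4 RPKM to 32.8 and 32.1 RPKM. Sprouty genes rose, from 18.1 and 17.7 RPKM to 28.3 and 29.1 RPKM, as did *Il17rd*.

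The PEA3 factors, the transcription factors most closely tied to FGF signalling, were low in both genotypes. *Etv1* lies on chromosome 12 (38780082 to 38870483). It had 4.81 and 4.19 RPKM in the control libraries and 2.88 and 2.48 RPKM in the mutant libraries. The mutant libraries lay below the controls, with a log2 fold change of -0.73 (SE 0.12, adjusted p = 0.00952, limma) from 143 to 324 reads per library. The adjusted p was 0.0719 without the first control library and 0.0881 without the second mutant library, and with a pseudocount of 1 the log2 fold change was -0.58, short of the fold limit. *Etv5* had 3.26 and 2.24 RPKM against 2.20 and 2.01 RPKM. Its control libraries differed from each other by more than the nearest control and mutant libraries did, and it did not pass the test (log2 fold change -0.35, SE 0.19, adjusted p = 0.248). *Etv4* was at 0.376 to 0.701 RPKM in the 4 libraries, overlapped between genotypes and was not tested.

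**Figure D3:**
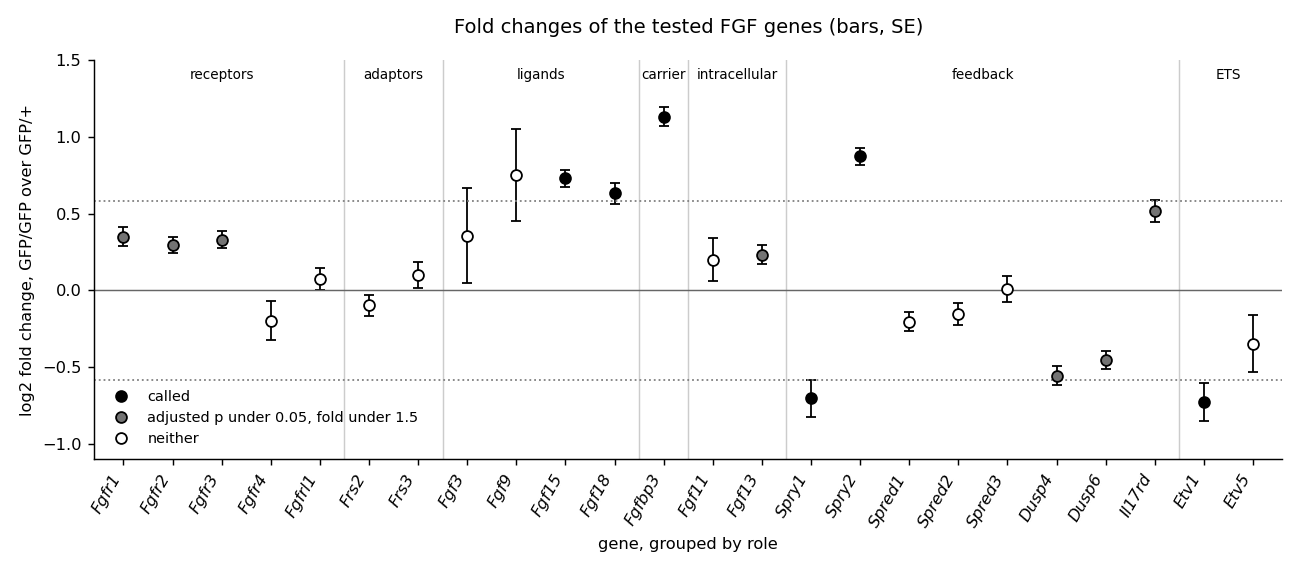
Log2 fold change of *Prdm13* GFP/GFP over *Prdm13* GFP/+ for the 24 tested FGF genes, grouped by role, with bars for the SE from limma (n = 2 libraries per genotype) and dotted lines at a fold of 1.5 in either direction. Black points are called (*Fgf15*, *Fgf18*, *Fgfbp3*, *Spry1*, *Spry2*, *Etv1*), grey points pass the adjusted p alone, and open points pass neither.

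Other genes of the pathway were taken as 3 lists. The first held 31 co-receptors, heparan sulphate core proteins and the enzymes that build or trim heparan sulphate, of which 24 were tested. In this list 2 were called higher and 1 lower, where 3.65% and 2.67% of all genes tested were. By adjusted p alone 6 were higher and 2 lower, where 9.76% and 9.95% of all genes were, and the median log2 fold change was 0.04. *Gpc4*, a glypican that carries heparan sulphate on the cell surface, had 12.0 and 11.6 RPKM in the control libraries and 22.5 and 23.6 RPKM in the mutant ones (log2 fold change 0.96, SE 0.06, adjusted p = 0.000154, limma). *Hs6st2*, which adds sulphate to heparan sulphate, had 4.92 and 4.70 RPKM against 8.96 and 9.31 RPKM (log2 fold change 0.91, SE 0.07, adjusted p = 0.00047). *Flrt3*, a membrane protein that binds FGF receptors, had 6.32 and 6.002 RPKM against 4.19 and 3.92 RPKM (log2 fold change -0.59, SE 0.08, adjusted p = 0.00496).

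For each of these 3 genes the genotypes did not overlap, with *Gpc4* and *Hs6st2* high and *Flrt3* low in the mutant libraries. The genes higher by adjusted p alone, named here after their values were seen, were *Sulf2*, an extracellular enzyme that removes the same kind of sulphate group (log2 fold change 0.58), *Hs6st1* (0.49), *Gpc2* (0.21) and *Agrn* (0.19), and *Gpc6* was lower (-0.52). *Sulf2* was called as well without the second control or the second mutant library, and *Gpc6* without the first mutant library. The call of *Flrt3* was lost with a pseudocount of 1, with quantile normalization and without the first control library or the second mutant library. *Kl* and *Klb*, the klotho co-receptors through which FGF15 and its endocrine relatives act in other tissues, were at or under 0.0715 RPKM in each library.

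The second list held 25 genes of the Ras-ERK cascade, all tested. By limma none was called in either direction and 7 had an unadjusted p under 0.05. Of all 12046 genes tested, 2084 were higher and 2025 lower with such a p in limma. By adjusted p alone 1 gene of the list was higher and 2 were lower (9.76% and 9.95% of all genes were), and limma voom called none. The median log2 fold change was 0.03, against 0.01 for all genes tested. The 3 genes of this list with the highest levels were *Map2k2* (log2 fold change 0.17, adjusted p = 0.172), *Grb2* (0.06, adjusted p = 0.413) and *Plcg1* (0.05, adjusted p = 0.558). Of the genes passing by adjusted p alone, named after their values were seen, *Rps6ka3*, an ERK-activated kinase, was higher (log2 fold change 0.29), and *Braf* (-0.26) and *Cbl* (-0.55), which marks receptors for degradation, were lower. *Cbl* had 10.7 and 12.0 RPKM in the control libraries and 8.01 and 7.46 RPKM in the mutant ones, and it passed the fold limit as well, and was called, when the first control or the first mutant library was left out.

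The third list held 15 other genes that respond to ERK, of which 12 were tested. In this list 1 gene was called higher and 3 lower (3.65% and 2.67% of all genes tested were), and by adjusted p alone 1 was higher and 5 lower (9.76% and 9.95% of all genes). The median log2 fold change was -0.18. *Phlda1* had 15.7 and 15.8 RPKM in the control libraries and 8.25 and 8.95 RPKM in the mutant ones (log2 fold change -0.86, SE 0.07, adjusted p = 0.000411, limma). *Dusp5*, a phosphatase specific for ERK, had 5.16 and 4.44 RPKM against 2.18 and 2.97 RPKM (log2 fold change -0.88, SE 0.16, adjusted p = 0.0128). *Fos*, an immediate early gene, had 6.89 and 7.09 RPKM against 4.14 and 5.10 RPKM (log2 fold change -0.59, SE 0.11, adjusted p = 0.0129).

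*Spsb1* was the gene called higher, at 12.6 and 13.3 RPKM against 18.2 and 20.8 RPKM (log2 fold change 0.59, SE 0.08, adjusted p = 0.00399, limma). It stood at the fold limit and was not called with a pseudocount of 1, with median ratio scaling, with limma voom or without the first control or second mutant library. *Dusp5* and *Fos* were each not called without the first or the second control library, or without the first mutant library, and *Fos* was not called with a pseudocount of 1 either, while *Phlda1* was called without any 1 library. *Myc*, at 2.31 and 2.55 RPKM against 3.08 and 4.24 RPKM (log2 fold change 0.56, adjusted p = 0.0603, limma), was called higher without the first mutant library. *Ier2* (log2 fold change -0.31) and *Mycn* (-0.26) were lower by adjusted p alone and were named after their values were seen. *Dusp1*, with *Mycn* and *Ier2* among the 3 highest of the list, did not change. It had 24.3 and 22.0 RPKM in the control libraries and 22.7 and 23.5 RPKM in the mutant ones (log2 fold change -0.002, adjusted p = 0.988, limma).

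**Figure D4:**
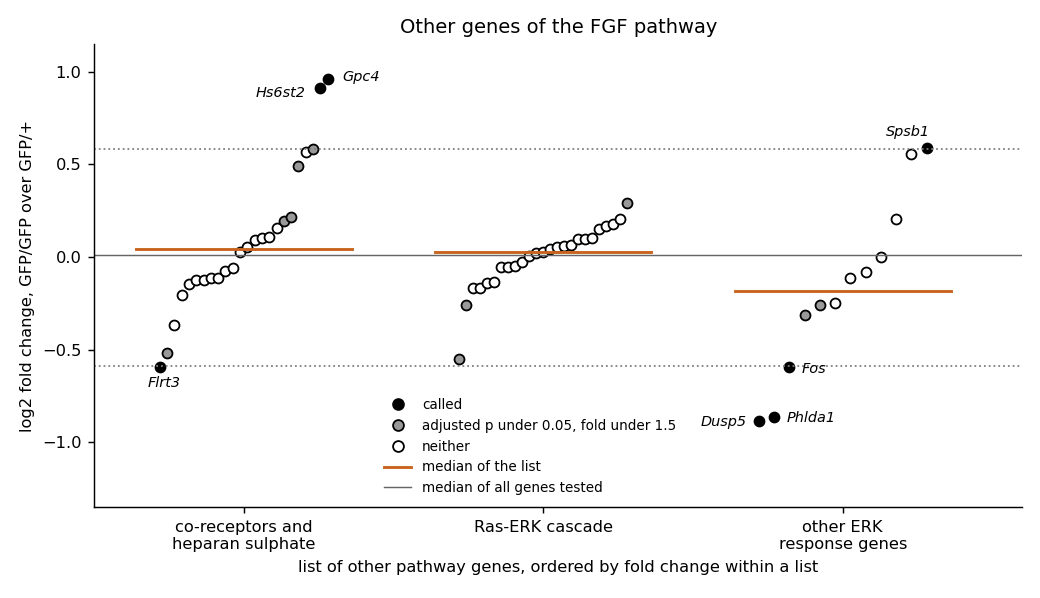
Log2 fold change of *Prdm13* GFP/GFP over *Prdm13* GFP/+ for the tested genes of 3 lists of other pathway genes (24, 25 and 12 genes), ordered within each list, with the median of a list in orange, that of all genes tested in grey and dotted lines at a fold of 1.5. The called genes are labelled: *Gpc4*, *Hs6st2* and *Spsb1* above, and *Flrt3*, *Fos*, *Phlda1* and *Dusp5* below.

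The levels of cell type markers were set beside these results, since FGF genes differ between progenitors and neurons. All 14 progenitor and radial glia markers were tested, with 1 called higher and 1 lower (3.65% and 2.67% of all genes were). Of these, *Slc1a3*, a glutamate transporter of radial glia, was called higher (2.57 and 2.82 RPKM in the control libraries, 12.4 and 11.4 RPKM in the mutant ones) and *Sox1* was called lower (14.0 and 15.2 RPKM, then 9.02 and 9.05 RPKM). By adjusted p alone 6 were higher and 3 were lower (9.76% and 9.95% of all genes were). The list summed to 2555 and 2576 RPKM in the control libraries and to 2576 and 2676 RPKM in the mutant libraries, with *Vim* the most abundant. Of 13 pan-neuronal markers, 4 were called higher (*Nefl*, *Nefm*, *Gap43* and *Stmn2*) and 1 lower (*Snap25*), where 3.65% and 2.67% of all genes were, and the list, led by *Tubb3*, summed to 2015 and 2075 RPKM in the control libraries and 2559 and 2669 RPKM in the mutant ones. The part of progenitors and neurons in the FGF results was not tested.

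Of 11 dorsal lineage genes, 2 were called higher (*Prdm13* and *Ptf1a*) and 6 lower (3.65% and 2.67% of all genes were), and the list summed to 786 and 862 RPKM in the control libraries and 665 and 693 RPKM in the mutant ones, with *Lhx5* its most abundant gene in the control libraries. Without *Prdm13* itself the sum was 672 and 735 RPKM in the control libraries and 356 and 369 RPKM in the mutant ones. *Pax2*, which marks inhibitory neurons of this lineage, went from 106 and 119 RPKM to 17.7 and 18.6 RPKM. Of 13 ventral and floor plate genes, 3 were tested and *Olig1* and *Olig2* were called higher, where 3.65% of all genes were. *Olig2*, the most abundant of them in the mutant, had 0 and 0.0224 RPKM in the control libraries and 17.0 and 21.3 RPKM in the mutant ones, and the list summed to 5.39 and 5.40 RPKM in the control libraries and to 34.2 and 39.6 RPKM in the mutant ones. *Shh* and *Foxa2*, which define the floor plate, stayed under 0.5 RPKM in every library. The authors stained mutant embryos and saw OLIG2 outside its ventral site, in dorsal cells that also carried PTF1A. They saw *Olig1* transcripts dorsally as well. The levels of *Olig1* and *Olig2* are therefore not used here as a measure of ventral cells. Of 9 dorsal root ganglion and neural crest genes, 6 were tested. In this list 3 were called higher (*Isl1*, *Pou4f1*, *Ntrk3*) and 1 lower (*Foxd3*), where 3.65% and 2.67% of all genes were. The sum of all 9 was 121 and 129.8 RPKM in the control libraries and 163 and 159 RPKM in the mutant ones, with *Tfap2b* the most abundant. The part of these cells in the FGF results was not tested.

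Markers of cells outside the neural tube were also listed. The 10 mesenchymal genes, led by *Col1a2*, summed to 5.23 and 5.80 RPKM in the control libraries and to 4.19 and 4.14 RPKM in the mutant ones, and only *Col1a2* reached the limit for testing and was not called. The 6 tail bud and presomitic mesoderm genes summed to 42.5 and 46.0 RPKM and to 44.8 and 49.6 RPKM, nearly all of it *Lfng*, which neural progenitors also express. *Tbx6*, a presomitic mesoderm gene, had 2.47 and 2.70 RPKM in the control libraries and 2.47 and 2.39 RPKM in the mutant ones, while *Msgn1*, of the same tissue, was listed at 0 in each library, as was *Fgf8*, a ligand of the tail bud. The 6 endothelial genes summed to 2.39 and 3.27 RPKM and to 3.14 and 3.65 RPKM, with *Cldn5* the highest of them in the second mutant library. The 8 erythroid genes, led by the embryonic globin *Hbb-y*, summed to 40.5 and 43.0 RPKM and to 44.0 and 42.6 RPKM, with 4 of them (*Hba-a1*, *Hba-a2*, *Hbb-bt* and *Hbb-bs*) listed at 0. Of the 6 tested genes in these last 4 lists, limma called none, none had an unadjusted p under 0.05, and limma voom called none.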

How the data were processed

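GFP+ cells of E11.5 neural tubes were profiled by RNA-seq in 2 *Prdm13* GFP/+ and 2 *Prdm13* GFP/GFP libraries, grouped by the submitters' labels. The authors aligned reads to mm10 with TopHat2 (version 2.1.0 in the submitters' processing notes), counted them on exons of RefSeq genes with featureCounts, applied TMM in edgeR (version 3.6.8 in the same notes) and deposited RPKM; whether counting used strand is not given in the sources used here. The deposited RPKM were used as they stand. Genes with a mean of at least 1 RPKM in either genotype were tested on log2(RPKM + 0.1) with lmFit and eBayes (trend) of limma 3.58.1 under R 4.3.3. Tests were two-sided and p-values were adjusted by Benjamini-Hochberg over 12046 genes. An exact permutation test of 2 against 2 libraries cannot give a p under 0.333. Within a library, RPKM are whole multiples of a step set by gene length and library size. Whole reads were recovered for 99.99% of genes above 0, to within 0.02 bases of a whole gene length, and 71.5% of the solved lengths lay within 5% of annotated exon lengths. They served for depth and for limma voom only. Replicate libraries differed by a median of 0.0783 (*Prdm13* GFP/+) and 0.0776 (*Prdm13* GFP/GFP) on the log2 scale, with a mean chi-square of recovered reads of 2.50 and 2.46 per gene where sampling noise alone gives about 1, so they were kept as separate libraries. Python 3.11.15 with pandas 2.3.3, numpy 2.4.6 and matplotlib 3.10.9 was used for tables and plots. Coordinates and promoter sequences are those of RefSeq on GRCm38.p6, matched by gene ID for all 44 genes, and overlaps of exons are from GENCODE on the same assembly.

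The genes and lists were chosen with earlier results of these data known. Named are every called gene and every tested receptor, adaptor, feedback inhibitor and PEA3 factor, and other ligands by range. Of the pathway lists, every gene that was called or passed by adjusted p alone is named. So are the 3 highest of each pathway list, and *Kl*, *Klb* and *Myc*. The lists and sums omit 2 genes that are not reported here, a choice made once values were known but not because of them. The test was tried on simulated data, where it called 185 of 200 changed genes and also 21 unchanged genes. Alternatives were pseudocounts of 1 and 0.01, no filter, a filter on both libraries, median ratio scaling, quantile normalization, limma voom, a block on the replicate number, eBayes with no trend, and leaving out each library.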

Additional observations from a re-analysis of the deposited data

How the results depend on the processing

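Over 13 alternatives, the 24 tested FGF genes gave 310 values, of which 287 kept the direction and the side of the threshold, 15 kept the direction and lost the call, 4 gained it and 4 changed sign. *Fgfbp3*, *Spry2* and *Fgf15* were called in 12 of 13 alternatives, *Fgf18* in 10, *Etv1* in 9 and *Spry1* in 8. The exception for the first 3 was testing all 24421 genes with no filter on RPKM, which called no FGF gene in limma against 4 higher and 2 lower (14 had an unadjusted p under 0.05 there), no pathway gene against 3 and 4, 1 higher and 1 lower cell type marker against 12 and 9, and 30 higher and 14 lower genes in all against 440 and 322, or 68.2% higher against 57.7%. With a pseudocount of 1, FGF genes called lower fell to 0 by limma (5 had an unadjusted p under 0.05, and limma voom called 2) and pathway genes called lower to 2. Signs changed only for genes near 0: *Spred3*, at 0.01, gave -0.0025 with limma voom and -0.067 to 0.087 with 1 library left out, and *Fgfrl1*, at 0.07, gave -0.016 to 0.16 with 1 library left out.

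Leaving out 1 library at a time gave 3 to 4 FGF genes called higher and 1 to 2 lower, 2 to 4 pathway genes higher and 2 to 4 lower, 12 to 13 markers higher and 8 to 9 lower, and 258 to 437 higher and 212 to 266 lower in all, the fewest without the second mutant library. With 1 library left in a genotype, that library is assumed to vary like the other genotype's. With the replicate number as a block, 459 genes were called higher and 342 lower, and the same 4 and 2 FGF genes, while *Spred1* reached an adjusted p of 0.0266 in limma. By adjusted p alone the block gave 1685 genes higher and 1515 lower, against 1176 and 1199. Deviations of same-numbered libraries correlated at 0.05 over 12046 genes, below the 0.1 asked of a pairing, and the numbers were not taken to pair the libraries. The median of all genes stayed within 0.1 of 0 under each scaling. Of the 44 FGF genes, 20 were under the limit of 1 RPKM and were not tested.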
